A study of Homo sapiens with 6 samples.

Results

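The collapsin response mediator proteins (CRMPs) are encoded by 5 human genes, CRMP1, DPYSL2 (CRMP2), DPYSL3 (CRMP4), DPYSL4 (CRMP3) and DPYSL5 (CRMP5). Their rows were taken by symbol from the FPKM files of U251 cells, a human glioma line whose genotype the labels give as WT, and all 5 were present among 16832 listed symbols. The family was selected on earlier results of the same comparison, in which CRMP1 and DPYSL5 stood higher in SLCDS, so the group values below describe the members and carry no test. The comparison had 3 libraries of cells kept for 18 days in SLCDS, a small-molecule mixture named in the labels by that abbreviation alone, and 3 control libraries of cells given PBS without SLCDS. In its title the series describes SLCDS cells as neuronal-like. How long the controls were cultured is not in the labels, nor whether libraries came from separate cultures, so p-values measure only the spread between these libraries, which may be technical.

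CRMPs are cytosolic phosphoproteins of growing axons. They bind tubulin and actin regulators and act downstream of semaphorin 3A, a secreted guidance cue that signals through neuropilin and plexin-A receptors. CRMP2 is phosphorylated by CDK5, GSK3, ROCK and FYN, and phosphorylation by CDK5 with GSK3, or by ROCK, lowers its binding to tubulin during growth cone collapse. The proteins resemble dihydropyrimidinase, the liver enzyme encoded by DPYS, but lack its enzymatic activity. Family members form mixed tetramers, and CRMP5 is known to oppose the neurite outgrowth that CRMP2 promotes.

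Values were FPKM, fragment numbers scaled by transcript length and by library size, so levels can be compared between genes. The steps between low FPKM values gave an estimated 16600000 to 17200000 fragments in the SLCDS libraries and 16300000 to 17000000 in the control libraries. Control replicate 3 stood apart from the other libraries, with Pearson correlations over the tested genes of 0.9701 to 0.9767 against every other library, compared with 0.9839 to 0.997 in pairs without it (genes are not independent replicates). Its FPKM sum was 348904, against 295203 to 310281 in the other 5 libraries, so results that rest on it are given with and without it. Of the glial and glioma markers (GFAP, VIM, NES, SOX2 and S100B) the summed level was 2277 to 2361 FPKM in SLCDS and 2318 to 2757 FPKM in control, and all 5 passed the filter described next, as the glioma label has it. GFAP among them averaged 135 ± 7.31 FPKM in SLCDS, against 339 ± 23.3 FPKM in control (SD, n = 3 each), and was called lower (limma, adjusted p = 0.000596). The other 4 were not called (limma, adjusted p = 0.186 to 0.952). Of these, NES averaged 254 FPKM in SLCDS and 216 FPKM in control, S100B 17.8 FPKM in SLCDS and 13.99 FPKM in control, VIM 1524 FPKM in SLCDS and 1507 FPKM in control, and SOX2 376 FPKM in SLCDS and 431 FPKM in control. The neuronal nuclear marker RBFOX3 was at 0.0133 FPKM or less in SLCDS libraries and 0.0206 FPKM or less in control libraries, and DCX, the doublecortin gene of young neurons, averaged 0.319 ± 0.00341 FPKM in SLCDS, against 0.330 ± 0.134 FPKM in control (SD, n = 3 each).

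The order of the 5 levels was the same in all 6 libraries. DPYSL3 was the most abundant member, followed by DPYSL2, DPYSL4, CRMP1 and DPYSL5. The ranges of neighbours in this order, taken over all 6 libraries, did not overlap. Of the 11506 genes that reached 1 FPKM in at least 3 libraries, 98.3% had a lower mean level than DPYSL3 and 93.3% a lower one than DPYSL2. For DPYSL4 this share was 68.1%, for CRMP1 23.0% and for DPYSL5 4.31%. The family was thus made of an abundant pair, an intermediate member and 2 members near the low end of the genes tested. All 5 members passed that filter, and 4 of them were at or above 1 FPKM in every library. DPYSL5 was under an FPKM of 1 only in control replicate 3.

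CRMP1, a member that acts in semaphorin 3A signalling and in the radial migration of cortical neurons, had 4.97, 5.61 and 5.29 FPKM in SLCDS replicates 1 to 3, against 3.39, 3.08 and 3.13 FPKM in control replicates 1 to 3. The groups did not overlap, and control replicate 3 lay between the other controls. The mean was 5.29 ± 0.317 FPKM in SLCDS and 3.20 ± 0.168 FPKM in control (SD, n = 3 each), a ratio of means of 1.65. On the log2(FPKM + 1) scale the difference was 0.58 (SE 0.08, limma), and 0.57 without control replicate 3. If the length is that of its longest coding transcript, 3146 nucleotides, these levels rested on about 264 to 292 fragments per SLCDS library and 158 to 174 per control library.

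DPYSL5, the member most divergent in sequence and the antigen of anti-CV2 autoantibodies, was measured at 1.76, 1.87 and 1.78 FPKM in SLCDS, against 1.04, 1.01 and 0.933 FPKM in control. Every SLCDS library was higher than every control library. Means were 1.80 ± 0.0567 FPKM in SLCDS and 0.992 ± 0.0542 FPKM in control (SD, n = 3 each), a ratio of 1.82, the highest in the family. The difference was 0.49 on the log2(FPKM + 1) scale (SE 0.07, limma) and 0.47 without control replicate 3. At this low level the added 1 compresses the change, and with a pseudocount of 0.1 it was 0.80. With a transcript of 5209 nucleotides, about 155 to 161 fragments lay behind each SLCDS value and 83 to 88 behind each control value.

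**Figure D1:**
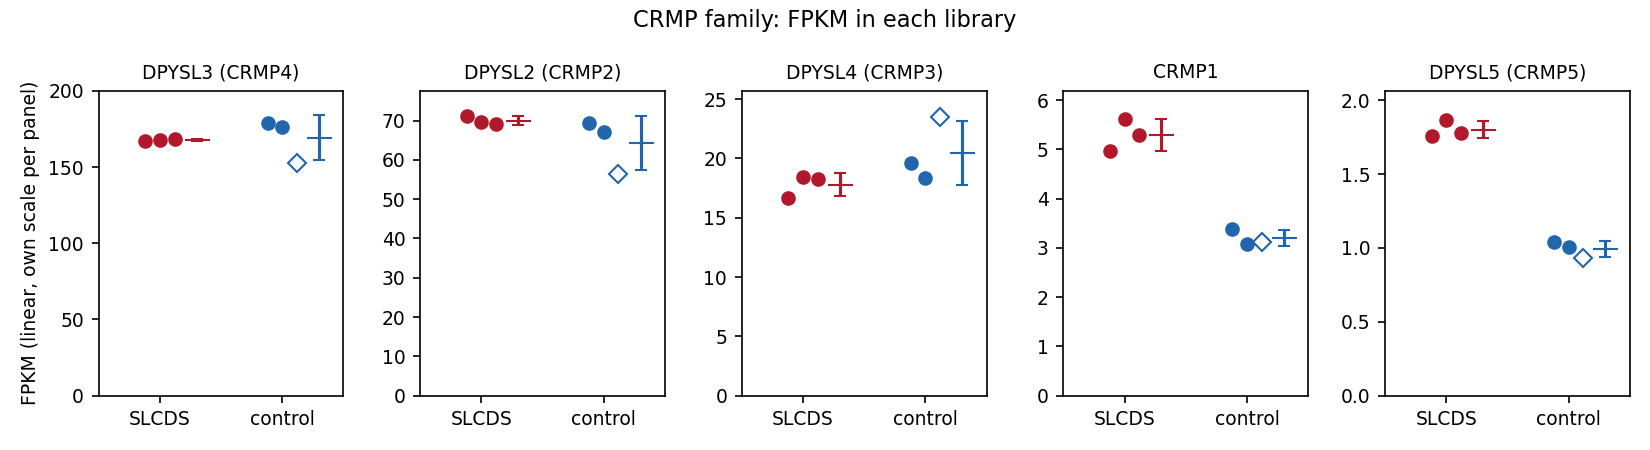
FPKM of the 5 genes in each library, on a linear axis from 0 with its own scale per panel; points are replicates 1 to 3 from left to right, the bar is the mean ± SD (n = 3), and the open diamond is control replicate 3. CRMP1 and DPYSL5 lie higher in all 3 SLCDS libraries (4.97 to 5.61 and 1.76 to 1.87 FPKM) than in any control library (3.08 to 3.39 and 0.933 to 1.04 FPKM), while the groups overlap for DPYSL3, DPYSL2 and DPYSL4.

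DPYSL3, whose product bundles actin filaments, had 167, 168 and 169 FPKM in SLCDS, against 179, 177 and 153 FPKM in control. The SLCDS values fell inside the range of the controls, which was set by control replicate 3. The mean was 168 ± 0.656 FPKM in SLCDS and 169 ± 14.6 FPKM in control (SD, n = 3 each). The log2 difference was -0.0076 (SE 0.09, limma), and its sign turned to 0.023 with equal FPKM sums and 0.033 with quantile normalization. Without control replicate 3 it was -0.08, with both remaining controls above all SLCDS libraries.

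DPYSL2, the tubulin-binding member studied most in axon specification, was at 71.2, 69.6 and 69.0 FPKM in SLCDS, against 69.3, 67.0 and 56.4 FPKM in control. The groups overlapped, and control replicate 3 was the lowest of the 6 libraries. Means were 69.9 ± 1.10 FPKM in SLCDS and 64.3 ± 6.86 FPKM in control (SD, n = 3 each), with a log2 difference of 0.13 (SE 0.09, limma). It was 0.037 without control replicate 3.

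DPYSL4, a member also described as a target of p53, had 16.6, 18.4 and 18.3 FPKM in SLCDS, against 19.6, 18.3 and 23.5 FPKM in control. Here control replicate 3 was the highest library, and the groups overlapped. The mean was 17.8 ± 0.984 FPKM in SLCDS and 20.5 ± 2.68 FPKM in control (SD, n = 3 each). The log2 difference was -0.19 (SE 0.10, limma), and -0.089 without control replicate 3.

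The start regions of the members are shown for CRMP1 and DPYSL5, which were higher in SLCDS, and for DPYSL3, the most abundant member. They are 300-base windows from RefSeq on build GRCh38.p14, from 250 bases before to 50 after the outermost annotated start, at chr4:5893037-5893336 (minus strand), chr2:26847745-26848044 (plus strand) and chr5:147510019-147510318 (minus strand). RefSeq windows matched 4 of the 5 members, with 9 windows in all, and the files do not tell which start was used. Capitals mark GGGCGG on either strand (CCGCCC on the printed strand), the GC box bound by Sp1 family factors.
CRMP1: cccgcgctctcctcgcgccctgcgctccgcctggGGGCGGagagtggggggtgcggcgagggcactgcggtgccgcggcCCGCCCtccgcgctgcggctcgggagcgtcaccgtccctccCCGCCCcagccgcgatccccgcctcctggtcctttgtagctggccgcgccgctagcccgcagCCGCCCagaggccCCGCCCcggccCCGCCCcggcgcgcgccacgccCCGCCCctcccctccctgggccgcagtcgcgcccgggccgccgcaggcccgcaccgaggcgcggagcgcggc
DPYSL5: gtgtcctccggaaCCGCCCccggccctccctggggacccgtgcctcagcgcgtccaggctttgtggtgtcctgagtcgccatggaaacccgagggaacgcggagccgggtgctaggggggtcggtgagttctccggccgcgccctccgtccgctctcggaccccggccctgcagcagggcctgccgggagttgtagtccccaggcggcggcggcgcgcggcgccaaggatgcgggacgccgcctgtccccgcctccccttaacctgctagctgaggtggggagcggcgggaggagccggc
DPYSL3: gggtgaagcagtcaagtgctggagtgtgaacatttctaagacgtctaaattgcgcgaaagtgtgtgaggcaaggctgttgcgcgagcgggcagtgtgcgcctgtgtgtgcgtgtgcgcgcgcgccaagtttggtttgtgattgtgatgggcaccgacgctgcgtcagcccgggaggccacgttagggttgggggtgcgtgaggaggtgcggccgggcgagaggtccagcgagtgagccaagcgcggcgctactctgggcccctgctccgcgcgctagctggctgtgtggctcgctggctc
The CRMP1 window held 7 matches, a number that 1.5% of 35116 promoter windows of this length reach or pass, and 83.7% of its bases were G or C, against a median of 58.7% over all windows. The DPYSL5 window held 1 match at 74.3% GC, and the DPYSL3 window none at 64.3% GC. These numbers depend on the start: the other DPYSL3 window held 3 matches, the other 3 CRMP1 windows 1, 7 and 2, and the other DPYSL5 window 1. DPYSL4, whose level overlapped between the groups, held 8 matches, some of them adjoining. At least 1 match was present in 45.0% of all windows. CANNTG, the E-box, had no match in the printed windows of CRMP1 and DPYSL5 and 1 in that of DPYSL3, against 68.7% of all windows with at least 1. TGACGTCA, the cAMP response element, had no match in any of the 9 windows and was present in 1.8% of all windows.

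In the limma fit across all 11506 genes, 2 of the 5 members, CRMP1 and DPYSL5, lay above the threshold of an adjusted p under 0.05 and none was called lower, nor was any at an unadjusted p under 0.05, and the same 2 had ranges that did not overlap. Over all genes tested, 4.28% were called higher and 1.82% lower, and 15.5% had all SLCDS libraries above all controls and 13.6% all below. Since this contrast was in view when the family was selected, nothing is read from the count. Without control replicate 3 the count of members was again 2 higher, beside 16.1% of genes called higher and 11.7% lower. It was 1 without SLCDS replicate 1 and 0 without SLCDS replicate 2 or 3, while the difference for CRMP1 was 0.55 to 0.62 and that for DPYSL5 0.48 to 0.50. The median difference of the 5 members was 0.126, against 0.000359 for all genes. Without control replicate 3 it was 0.0365, against 0.00186 for all genes.

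**Figure D2:**
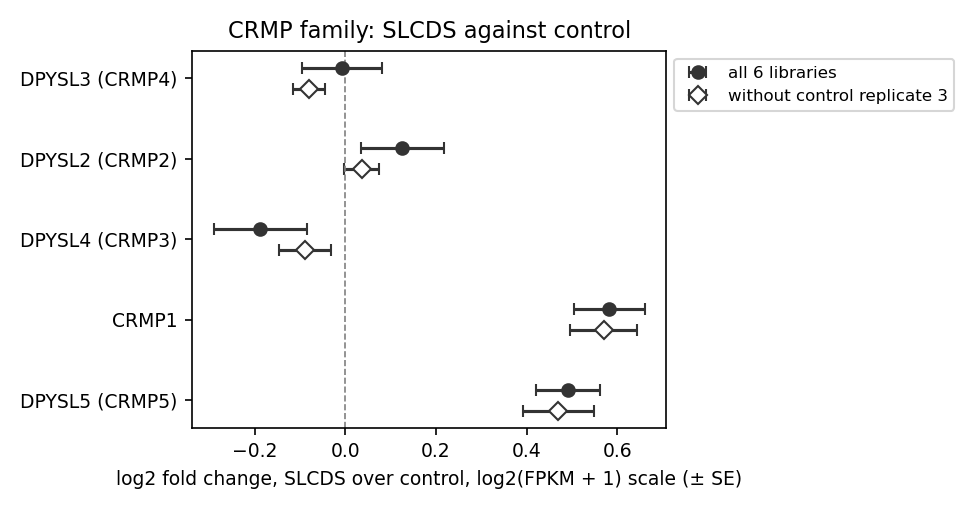
Difference between SLCDS and control on the log2(FPKM + 1) scale for each gene, with its SE from limma, for all 6 libraries (filled circles) and without control replicate 3 (open diamonds). CRMP1 (0.58 and 0.57) and DPYSL5 (0.49 and 0.47) hardly move when that library is left out, and the other 3 genes lie between -0.19 and 0.13.

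The abundant members set the family total. Summed over the 5 genes it was 263 ± 0.77 FPKM in SLCDS and 258 ± 19.0 FPKM in control (SD, n = 3 each), a ratio of 1.02, and 0.977 without control replicate 3. DPYSL3 made up 63.9 ± 0.196% of the sum in SLCDS and 65.5 ± 0.956% in control, and DPYSL2 26.6 ± 0.491% in SLCDS and 24.8 ± 0.858% in control. The share of CRMP1 was 2.01 ± 0.115% in SLCDS and 1.24 ± 0.082% in control. DPYSL5 contributed 0.685 ± 0.020% in SLCDS and 0.385 ± 0.00846% in control. For DPYSL4 the share was 6.77 ± 0.355% in SLCDS and 8.01 ± 1.67% in control, with overlap between groups and 9.93% in control replicate 3. Both low members thus took a larger share of the family in SLCDS, but they were known to be higher when the family was selected. The summed level differed by less than the spread of the controls. That spread was set mainly by control replicate 3, at 237 FPKM, against 272 and 266 FPKM in control replicates 1 and 2. Both of the latter lay above every SLCDS sum (262 to 263 FPKM).

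Ratios of members within a library do not change when all values of that library are multiplied by a common factor. Quantile normalization, or removal of trends with transcript length and GC content, can still change them. CRMP1 over DPYSL2 was 0.0699, 0.0806 and 0.0767 in SLCDS, against 0.0490, 0.0460 and 0.0554 in control. DPYSL5 over DPYSL2 was 0.0247, 0.0268 and 0.0258 in SLCDS, against 0.0150, 0.0150 and 0.0165 in control. Neither ratio overlapped between groups, with control replicate 3 included, but CRMP1 and DPYSL5 were known to be higher when the family was selected. DPYSL3 over DPYSL2, whose own levels overlapped between groups, was 2.35, 2.41 and 2.44 in SLCDS, against 2.58, 2.63 and 2.70 in control. This ratio of the abundant pair was lower in every SLCDS library, and control replicate 3 lay on the side of its own group. DPYSL4 over DPYSL2 was 0.234, 0.265 and 0.265 in SLCDS, against 0.283, 0.273 and 0.416 in control, also lower in every SLCDS library, with the highest value in control replicate 3. CRMP1 over DPYSL5 was 2.83 to 3.01 in SLCDS and 3.06 to 3.35 in control, with no overlap and a mean of 2.94 ± 0.096 in SLCDS against 3.23 ± 0.149 in control (SD, n = 3 each). Of single genes tested, 15.5% had all SLCDS libraries above all controls and 13.6% all below. The share of gene pairs whose ratios separate the groups is not given here, so nothing is read from these separations.

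**Figure D3:**
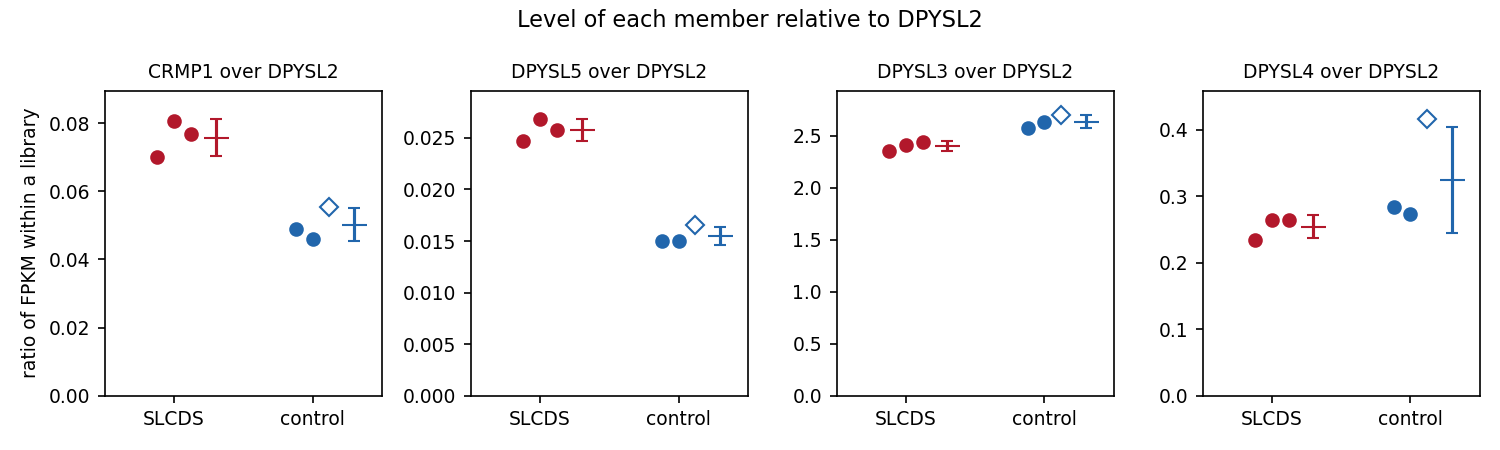
FPKM of 4 members divided by that of DPYSL2 within each library, on linear axes from 0; points are replicates 1 to 3 from left to right, bars are mean ± SD (n = 3), and the open diamond is control replicate 3. For CRMP1 and DPYSL5 the SLCDS libraries lie above the controls, and for DPYSL3 (2.35 to 2.44 in SLCDS, 2.58 to 2.70 in control) and DPYSL4 (0.234 to 0.265 in SLCDS, 0.273 to 0.416 in control) they lie below.

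The likeness of profiles over the 6 libraries was measured as the root mean square difference between log2(FPKM + 1) values, each centred on the mean of its gene. Within the family CRMP1 and DPYSL5 were closest, at 0.0588, followed by DPYSL2 and DPYSL3 at 0.071. The family was selected with CRMP1 and DPYSL5 known to be higher in SLCDS, so their closeness was built in. The measure also favours profiles that vary little, such as those of DPYSL3 (SD 0.0802) and DPYSL2 (SD 0.121). A distance of 0.071 therefore does not by itself mean a shared pattern. CRMP1 and DPYSL4 were farthest apart, at 0.401. Among all genes tested, the profile most like that of CRMP1 was CDH13, a GPI-anchored cadherin, at 0.0268. Its mean level was 3.44 ± 0.241 FPKM in SLCDS, against 1.93 ± 0.0812 FPKM in control (SD, n = 3 each). For DPYSL5 the closest were PRSS12, which encodes the neuronal serine protease neurotrypsin, at 0.0342, and LRP8, a reelin receptor, at 0.0356. LRP8 averaged 5.54 ± 0.178 FPKM in SLCDS and 3.66 ± 0.234 FPKM in control (SD, n = 3 each). Genes close to CRMP1 or DPYSL5 share their group difference by construction, so the means of CDH13 and LRP8 carry no test. For DPYSL2 the closest genes were PKP2, at 0.0147, and BNIP2, at 0.0154. For DPYSL3 they were POLR1B, at 0.011, and DHX9, at 0.0141. For DPYSL4 they were VWCE, at 0.022, and RNF130, at 0.0296. In each of these last 6 genes control replicate 3 was the extreme library, as it was in the member itself.

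Kinases and phosphatases that act on CRMPs were followed in a list of 17 genes, of which 14 were tested. In this list 2 genes rose in SLCDS, none fell and 12 did not pass (limma, adjusted p under 0.05), with a median log2 difference of 0.0501. Over all genes tested 4.28% were called higher and 1.82% lower, and these shares stand beside the counts of each list that follows. At an unadjusted p under 0.05 the counts were 2 higher and 0 lower. CDK5R2, which encodes the p39 activator of CDK5, had 1.36, 1.36 and 1.45 FPKM in SLCDS, against 0.567, 0.469 and 0.758 FPKM in control (log2 difference 0.58, SE 0.09; limma, adjusted p = 0.0104). It passed the filter on low values only through the SLCDS libraries, so a higher level in SLCDS was built into its inclusion. Its call ended with quantile normalization (limma, adjusted p = 0.0524). FYN, a Src family kinase that phosphorylates CRMP2, had 61.8, 66.3 and 61.3 FPKM in SLCDS, against 48.6, 46.1 and 49.97 FPKM in control (log2 difference 0.38, SE 0.07; limma, adjusted p = 0.0233). The FYN groups did not overlap, and its adjusted p ranged from 0.000179 to 0.167 over 17 other settings, with 11 under 0.05. The call ended when any 1 SLCDS library (adjusted p = 0.127 to 0.167, limma) or control replicate 1 (0.0771) or 2 (0.0878) was left out. CDK5 itself averaged 24.7 ± 0.892 FPKM in SLCDS, against 26.4 ± 6.23 FPKM in control (SD, n = 3 each; limma, adjusted p = 0.86), and GSK3B 31.1 ± 0.616 FPKM in SLCDS, against 26.9 ± 6.16 FPKM in control (limma, adjusted p = 0.523). The other CDK5 activator, CDK5R1, averaged 1.54 ± 0.124 FPKM in SLCDS and 1.55 ± 0.204 FPKM in control. CDK5, GSK3B and CDK5R1 are named outside the naming rule, for their role.

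In the semaphorin 3A receptor pathway 16 of 20 genes were tested, and 2 rose, none fell and 14 did not pass (limma), with a median of 0.0097 and unadjusted counts of 3 higher and 0 lower. L1CAM, the adhesion molecule that joins neuropilin-1 in the semaphorin 3A receptor, had 5.14, 5.23 and 5.81 FPKM in SLCDS, against 0.601, 0.673 and 0.396 FPKM in control (log2 difference 2.04, SE 0.10; limma, adjusted p = 0.000228). L1CAM also passed the filter through SLCDS alone and was known from earlier results to be higher. MICAL2, a relative of Mical, the actin-oxidizing enzyme that acts downstream of plexin A in Drosophila, had 1.70, 1.78 and 2.07 FPKM in SLCDS, against 1.15, 0.921 and 0.636 FPKM in control (log2 difference 0.59, SE 0.12; limma, adjusted p = 0.0281, and 0.00366 to 0.16 over 16 other settings). Control replicate 1 was the only control at 1 FPKM or more, so MICAL2 passed the filter mainly through the SLCDS libraries. Its call carries that limit. The MICAL2 call ended without any 1 SLCDS library (adjusted p = 0.122 to 0.16, limma) and without control replicate 2 (0.083), and also with FPKM sums made equal (0.0553). For the ligand SEMA3A the mean was 13.3 ± 0.336 FPKM in SLCDS and 13.2 ± 1.97 FPKM in control, and for its receptor NRP1 it was 14.8 ± 0.0926 FPKM in SLCDS, against 12.5 ± 1.60 FPKM in control (SD, n = 3 each), named for their role, and neither passed (limma, adjusted p = 0.942 and 0.273). Without control replicate 3 the median was -0.0627, with the sign turned, and the counts were 4 higher and 2 lower (16.1% and 11.7% over all genes), with PLXNA1 (0.15) and RRAS (0.30) added above and NRP2 (-0.28) and PLXNA2 (-0.38) below.

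Of 14 binding partners and cargo genes 13 were tested, and 1 rose, none fell and 12 did not pass (limma), with a median of 0.0314 and unadjusted counts of 1 higher and 3 lower. The riser was SCN9A, the gene of a sodium channel whose surface level CRMP2 is known to regulate, with 1.69, 1.55 and 1.77 FPKM in SLCDS, against 0.338, 0.259 and 0.236 FPKM in control (log2 difference 1.06, SE 0.08; limma, adjusted p = 0.000615). It was named after its values were seen, passed the filter through SLCDS alone and was known from earlier results. The most abundant genes of the list were the tubulins that CRMP2 binds as heterodimers. TUBA1A had 428, 391 and 390.5 FPKM in SLCDS, against 529, 527 and 642 FPKM in control, with no overlap (log2 difference -0.48, SE 0.11; limma, adjusted p = 0.0562, and 0.000233 to 0.298 over 17 other settings, 5 of them under 0.05). TUBB averaged 222 ± 6.98 FPKM in SLCDS and 216 ± 10.4 FPKM in control (SD, n = 3 each; limma, adjusted p = 0.849). Both tubulins have close paralogs, between which fragments may have been split. Without control replicate 3 the median of the list was -0.0596, with the sign turned. In that setting 5 genes were lower, where 11.7% of all genes were, namely TUBA1A (-0.39), the Mena gene ENAH (-0.40), the WAVE complex gene CYFIP1 (-0.27), the chimaerin gene CHN1 (-0.16) and the kinesin gene KIF5C (-0.15), and SCN9A was again higher.

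**Figure D4:**
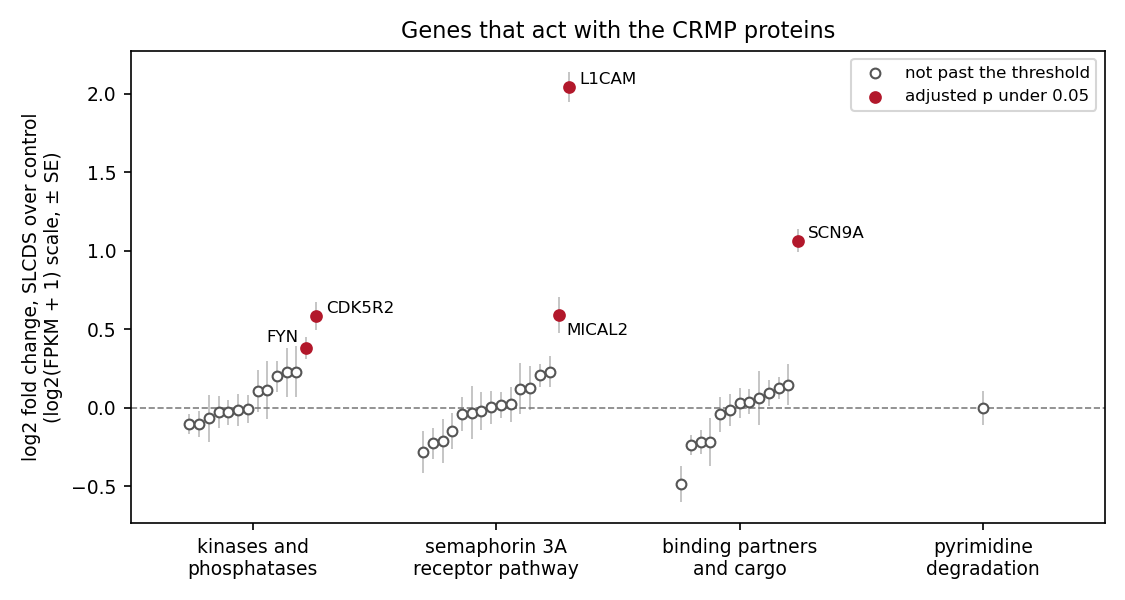
Difference between SLCDS and control on the log2(FPKM + 1) scale, with its SE from limma, for each tested gene of the 4 lists, sorted within a list; filled points have an adjusted p under 0.05. CDK5R2 (0.58), FYN (0.38), L1CAM (2.04), MICAL2 (0.59) and SCN9A (1.06) are the 5 called genes over all libraries.

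Of the pyrimidine degradation genes, DPYS, the enzyme that gives the family its name, was listed at 0 in SLCDS replicate 1 and in control replicates 2 and 3. In the other 3 libraries its values were 1 or 2 times the smallest step seen for the gene, so its signal was at the limit of detection beside that of its 5 relatives. DPYD, the first enzyme of that pathway, averaged 12.1 ± 0.208 FPKM in SLCDS and 12.2 ± 1.78 FPKM in control (SD, n = 3 each), and did not pass (limma, adjusted p = 0.997). It was the only tested gene of 3, with none called at an unadjusted p under 0.05 either.

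The summed level of the proliferation markers was 71.5 to 77.1 FPKM in SLCDS and 49.1 to 54.6 FPKM in control. Of these 5 markers 4 rose (limma), where 4.28% of all genes tested did. The adjusted p (limma) was 0.00593 for MKI67, 0.0207 for TOP2A, 0.0325 for CDK1 and 0.0495 for CCNB1, the last close to the threshold. PCNA did not pass (limma, adjusted p = 0.407), and its groups overlapped. Of 10 neuronal markers 9 were listed and 3 tested, and none passed (limma, adjusted p = 0.0671 for TUBB3, 0.119 for SNAP25 and 0.458 for MAP2), with sums of 51.5 to 52.7 FPKM in SLCDS and 63.6 to 64.0 FPKM in control, nearly all of it from these 3 genes. TUBB3 was lower in every SLCDS library, with 30.8, 28.7 and 29.1 FPKM in SLCDS, against 36.9, 36.0 and 45.3 FPKM in control. SNAP25 was higher in every one, with a mean of 6.24 ± 0.259 FPKM in SLCDS against 4.85 ± 0.592 FPKM in control (SD, n = 3 each). Among the neuronal markers too low to be tested, 3 were also higher in every SLCDS library, while RBFOX3, DCX and ELAVL3 overlapped. Of the genes tested 15.5% were higher in every SLCDS library, and the share among lower genes is not given here. SYN1 averaged 0.887 FPKM in SLCDS and 0.529 FPKM in control, ELAVL4 0.1302 FPKM in SLCDS and 0.0540 FPKM in control, and STMN2 0.137 FPKM in SLCDS, being listed at 0 in all 3 controls. STMN2 had 0.0590, 0.180 and 0.174 FPKM in SLCDS replicates 1 to 3, and such low values rest on few fragments. Of the oligodendrocyte lineage, cells that also express CRMPs, the defining markers MBP and MOG were at 0.334 FPKM or less in every library, MBP being listed at 0 in control replicates 2 and 3. Fibroblast markers summed to 364 to 371 FPKM in SLCDS and 363 to 395 FPKM in control, almost all from COL1A2. PDGFRB averaged 1.77 ± 0.0982 FPKM in SLCDS, against 0.359 ± 0.0715 FPKM in control (SD, n = 3 each), and its call as higher (limma) carries the limit given for CDK5R2, since it passed the filter through SLCDS alone. No listed marker was at 0 in all 6 libraries. The part of these markers in the values of CRMP1 and DPYSL5 was not tested. In bulk libraries, fewer cells that express a gene and less RNA per cell cannot be told apart.

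Whether counting used strand is not given in the sources used here, and annotated exons of CRMP1 share 159 bases with those of EVC on the opposite strand in GENCODE release 29. The level of EVC was 7.32, 8.97 and 8.44 FPKM in SLCDS, against 11.2, 10.2 and 4.74 FPKM in control, with overlapping groups. PNMA2 shares 71 exon bases with DPYSL2 on the opposite strand and averaged 38.1 ± 0.882 FPKM in SLCDS and 30.6 ± 3.14 FPKM in control (SD, n = 3 each). It was higher in every SLCDS library. The part of EVC in the values of CRMP1, or of PNMA2 in those of DPYSL2, was not tested. Annotated antisense RNAs also overlap DPYSL3 and DPYSL5.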

How the data were processed

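Total RNA was sequenced in 3 SLCDS and 3 control libraries, and the authors deposited linear FPKM for each. Per the labels' protocols, a VAHTS Universal V6 kit was used for library preparation. Aligner, counter and annotation: not given in the sources used here. For this human line, GRCm38 and mm10, both mouse builds, appear in the submitters' processing notes, whereas 16528 of 16832 symbols match human RefSeq symbols. The build is thus unsettled, and the only coordinates printed are those of RefSeq windows. Sample titles gave the group and replicate of each library.

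Values were analysed as log2(FPKM + 1), so changes at low levels are understated. The 11506 genes reaching 1 FPKM in 3 libraries entered a linear model in limma 3.58.1 (R 4.3.3) with a mean-dependent variance prior. Tests were 2-sided, and p-values were adjusted over these genes by the Benjamini-Hochberg method. "Rose" and "fell" mean an adjusted p under 0.05. The fit was checked on simulated data. Depth was estimated from the steps of low FPKM values in 362 genes with a single transcript, 41.7% of which agreed within 5%. Numbers of fragments are therefore approximate, and counting error sets a lower limit on the error of low genes only. The 5 members, the lists and the markers were chosen with earlier results of these data known. Named genes were all members, up to 4 called genes per list by size of change (the 2 most abundant where fewer than 2 were called) and the 2 genes most like each member. Exceptions are stated where they occur. Some results for named genes and markers are not reported here. Alternatives were other pseudocounts, filters, scalings and variance priors, a replicate block and each library left out. Removal of each library's trend with transcript length and GC content (natural splines, 4 degrees of freedom) was added after seeing the data. Python 3.11.15, numpy 2.4.6, pandas 2.3.3 and matplotlib 3.10.9 were used for other steps.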

Additional observations from a re-analysis of the deposited data

How the results depend on the processing

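CRMP1 kept its direction in 16 other settings (log2 difference 0.52 to 0.71) and DPYSL5 in 16 (0.39 to 0.80, the highest with a pseudocount of 0.1). The count of members called higher was 0 with a mean FPKM of at least 5, which removes both genes, and 0 to 2 with 1 library left out. DPYSL3, not called in any setting, changed sign with equal FPKM sums (0.023) and quantile normalization (0.033), and spanned -0.081 to 0.033 with 1 library left out. DPYD did so with equal FPKM sums (0.026) and spanned -0.12 to 0.059. Over all genes, 196 were called higher and 128 lower with a mean FPKM of at least 5, 1179 and 787 after removal of the trends with length and GC (chosen after seeing the data), and 140 to 1842 and 56 to 1340 with 1 library left out, the highest without control replicate 3. Quantile normalization gave 326 lower. No scaling moved the median of all genes by as much as 0.1.

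Kinase and phosphatase genes called higher numbered 1 with a mean FPKM of at least 5 or quantile normalization and 0 to 2 with 1 library left out. Semaphorin pathway genes called higher were 0 with a mean FPKM of at least 5, 1 with equal FPKM sums and 0 to 4 with 1 library left out, and those called lower 2 with the trend removed and 0 to 2. Binding partners called higher were 0 with a mean FPKM of at least 5 and 0 to 1, and those called lower 1 with equal FPKM sums, quantile normalization or a prior without trend, 4 with the trend removed and 0 to 5. CDK5R2, L1CAM and SCN9A fall under the filter when an SLCDS library is left out.

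Same-numbered libraries deviated together with correlations of -0.326, 0.36 and 0.0652, so the numbers were not taken as pairs. With a replicate block 346 genes were higher and 109 lower, the same 2 members were called, and the lists of kinases and of semaphorin genes had 1 higher each, since FYN (limma, adjusted p = 0.0969) and MICAL2 (0.0712) were no longer called. Identity between the proteins was not run. Filters and left-out libraries leave fewer genes or samples by construction, and otherwise the cause was not tested. At the estimated depths, levels such as those of DPYS lie at the limit of detection.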
